A study of Mus musculus with 12 samples.

Results

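Genes of the gp130 receptor family and of the Janus kinases were examined in RNA of the mouse dorsal raphe (DR). This midbrain nucleus contains most of the serotonergic neurons projecting to the forebrain. The set is defined by gene name and function, and it was drawn up with earlier results of these data known. It consists of 10 of the 24421 genes listed in the count files, namely the 6 receptor genes Il6st, Il6ra, Cntfr, Lifr, Osmr and Lepr and the 4 kinase genes Jak1, Jak2, Jak3 and Tyk2. All 10 passed the filter on low counts and were tested among 15453 genes.

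STAT3 KO mice (Sert Cre/+; Stat3 fl/fl, 4 females and 4 males) were compared with control littermates (Sert Cre/+; Stat3 fl/+, 2 females and 2 males) on a C57 x 129 hybrid background. Both genotypes therefore carried Cre in 1 copy of the serotonin transporter gene. The controls also carried 1 floxed copy of Stat3, which was exposed to this Cre too. Animals were 8 to 16 weeks old when experiments began and were housed singly, and each library came from 1 animal. Cre was inherited and acted in cells that express the transporter, so the deletion concerned mainly serotonergic neurons of the DR and was not timed to adulthood, whereas each library held RNA from every cell type of the dissected tissue.

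Cytokines such as interleukin-6, leukaemia inhibitory factor and ciliary neurotrophic factor signal by bringing together receptor chains that have no enzyme activity of their own. The signalling chains hold Janus kinases, which phosphorylate each other and the receptor tails. STAT3 docks on these tails and is phosphorylated in turn. The shared chain gp130, encoded by Il6st, is found on most cell types, whereas the chains that recognise each cytokine set which cells respond. In the brain this pathway is known for the response of astrocytes to injury, for neuronal survival and, through the leptin receptor, for control of feeding. The members examined here are the part of the pathway upstream of the deleted factor.

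Libraries held 24379588 to 29645210 counts on genes, and in these libraries the members were read with 80 to 6044 counts each, all above the 3 counts (0.101 to 0.123 CPM) taken as the smallest measurable level. Levels are given as CPM, a gene's counts relative to all gene counts of the library, scaled with TMM factors. Stat3 itself was at 64.6, 66.2, 67.7 and 67.6 CPM in controls 13, 4, 3 and 11 and lay between 62.6 and 70.0 in the 8 STAT3 KO mice with a median of 66.4. Its log2 fold change was -0.01 ± 0.04 (SE; adjusted p = 0.992, edgeR quasi-likelihood test), with an interval of -0.09 to 0.08. Reads from every cell type and from undeleted exons enter this value, so it does not check the deletion. The tissue label was borne out by its markers: all 9 serotonergic markers were read in every library, with summed levels of 1637 to 2069 CPM in controls and 1490 to 2198 CPM in STAT3 KO mice. Of the other marker lists, choroid plexus genes were summed to 238 CPM in the highest STAT3 KO library against at most 23.3 in controls (STAT3 KO 8 and 16 stood apart), cerebellar Purkinje cell genes to 663 CPM in the highest STAT3 KO library against at most 227 in controls, and forebrain excitatory genes to 272 CPM in control 4 against at most 90.3 in STAT3 KO mice.

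To compare the members with each other, levels were divided by the length of the union of a gene's exons and averaged over the 12 animals. Cntfr, which encodes the membrane-anchored receptor for ciliary neurotrophic factor, had the highest level at 37.0 ± 3.27 CPM per kilobase (SD, n = 12). Jak1, the kinase most closely tied to gp130, followed at 26.7 ± 1.30, and Jak2 and Il6st lay close together at 10.6 ± 0.479 and 9.22 ± 0.648. Lifr, the chain that joins gp130 to bind leukaemia inhibitory factor, was at 6.23 ± 0.701. All 5 lay above the median of the genes tested, with Cntfr at percentile 91.4, Jak1 at 87.3, Jak2 at 67.9, Il6st at 64.4 and Lifr at 54.1.

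The other members were sparse. Tyk2 was at 2.15 ± 0.215 CPM per kilobase and Jak3 at 1.61 ± 0.270, and these kinases stood at percentiles 30.2 and 25.6. Lepr, the leptin receptor, was at 0.757 ± 0.181, Osmr, the oncostatin M receptor, at 0.506 ± 0.189, and Il6ra, the ligand-binding chain for interleukin-6, at 0.404 ± 0.0616. Il6ra thus had the lowest level of the 10, at percentile 10.1, and Osmr (12.1) and Lepr (16.4) were near it.

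Neighbours in this order were compared within animals with a two-sided exact sign-flip permutation test over the 9 pairs. The pairs and the direction of each were taken from the mean levels of these same 12 animals. The p values therefore measure only how steadily a ratio held across animals, and they do not test the order itself. The higher gene was ahead in 12 of 12 animals in the first 7 pairs (adjusted p = 0.000628, the smallest the design gives with these pairs). Ranges of all animals were nevertheless apart only for Jak1 over Jak2, Il6st over Lifr, Lifr over Tyk2 and Jak3 over Lepr, where the mean ratios were 2.53, 1.49, 2.90 and 2.15. Without division by length, which is no basis for comparing genes, Cntfr lay below Jak1 (log2 ratio -0.91) and Jak2 below Il6st (-0.94). Per length, Jak2 exceeded Il6st by a ratio of only 1.15 (1.03 to 1.24). This order turned around when the longest annotated transcript replaced the exon union (log2 ratio -0.15, from 0.20, exact sign-flip p = 0.000488). Lepr was above Osmr in 11 of 12 animals (ratio 1.53, adjusted p = 0.00385), and this order also turned around with the longest transcript (log2 ratio -0.18, exact sign-flip p = 0.243), because the annotated exons of Osmr cover 12113 bases and its longest transcript 5491. Osmr was above Il6ra in 10 of 12 animals (ratio 1.21, adjusted p = 0.00684).

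**Figure D1:**
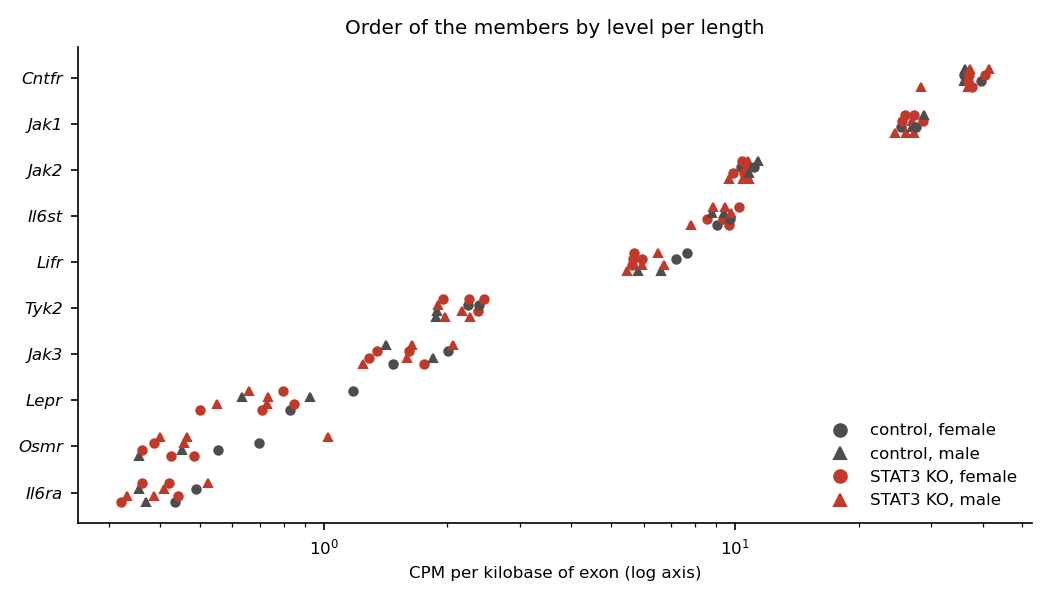
Level of each member per kilobase of exon on a log axis, with 1 point for each of the 12 animals, circles for females and triangles for males. The members span from 0.404 (Il6ra) to 37.0 CPM per kilobase (Cntfr), with a gap between Lifr and Tyk2.

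The genotypes were then compared member by member. No member differed between STAT3 KO and control mice after adjustment over all genes (0 of 10 with edgeR's quasi-likelihood test, as for 0% of the 15453 genes tested, and 0 of 10 with DESeq2, the likelihood ratio test and limma-voom, which called 6, 3 and 0 genes in all). Adjusted p values ranged from 0.615 to 0.9998. At an unadjusted p below 0.05, 2 of 10 members, Lifr and Lepr, were lower in STAT3 KO mice, where 4.05% of all genes tested were lower and 7.66% differed in either direction. In 9 of 10 members the estimate was below 0, which was so for 50.6% of all genes. Estimates of 7 of those 9 lay within 0.11 of 0, and the median log2 fold change was -0.04 over the members and -0.00 over all genes tested. With the exact permutation test 1 of 10 members, Lifr, passed an unadjusted 0.05, against 6.87% of all genes. Values of the genotypes overlapped in every member, whereas 0.427% of genes did not overlap. The p values measure the spread between animals. In bulk tissue, fewer cells of a type and less RNA per cell cannot be told apart.

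**Figure D2:**
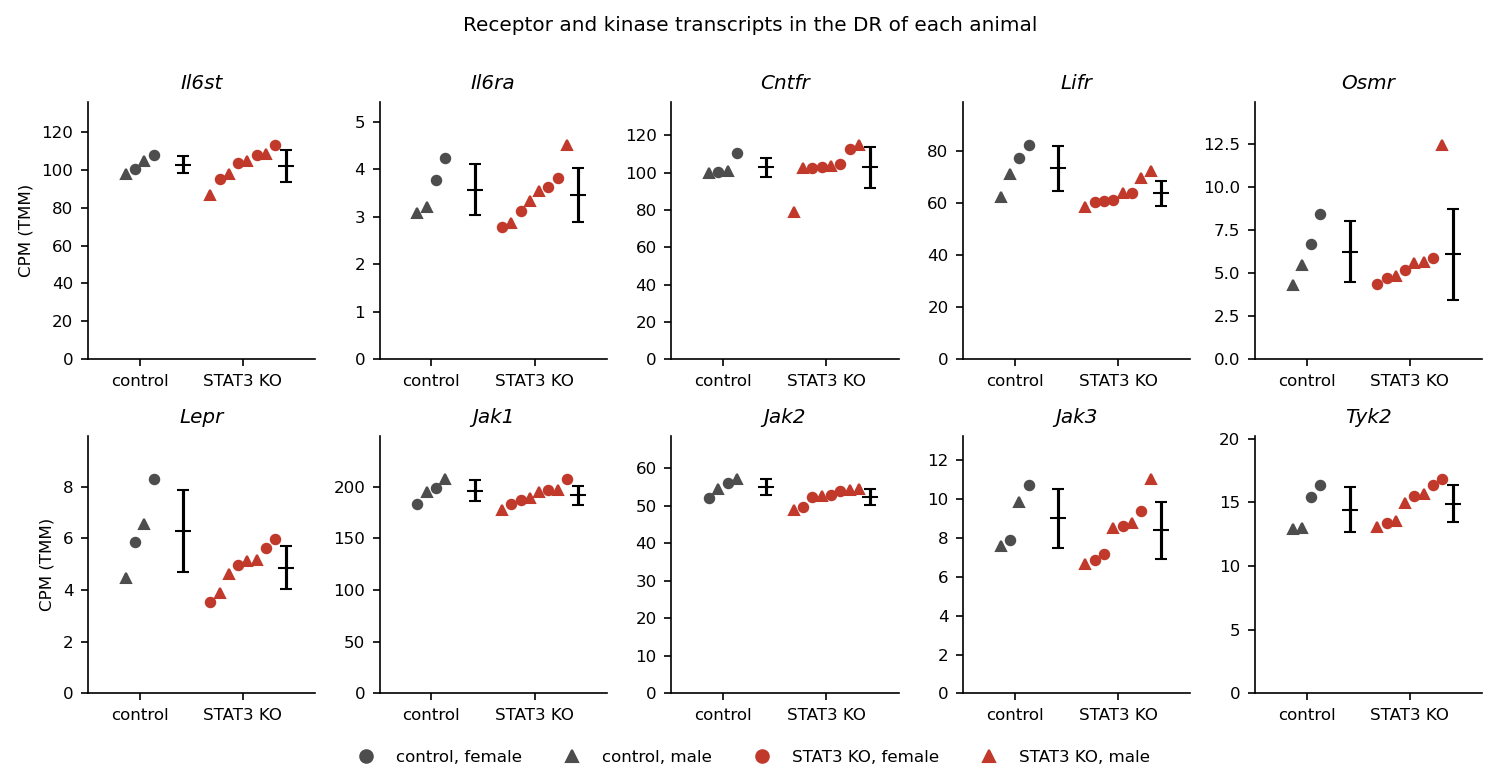
CPM of each member in each animal, controls in grey and STAT3 KO mice in red, circles for females and triangles for males, ordered by level within a group, with mean ± SD in black. Genotypes overlap in all 10 panels, and STAT3 KO 6 lies far above the others in Osmr at 12.4 CPM and STAT3 KO 8 far below in Cntfr at 78.7 CPM.

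The shared chain Il6st (chromosome 13, 112464070 to 112510086, plus strand, GRCm38) was at 101, 97.5, 108 and 104 CPM in controls 13, 4, 3 and 11. In STAT3 KO mice it ranged from 86.8 to 113 with a median of 104. The lowest value, in STAT3 KO 6, and the highest, in STAT3 KO 10, both belonged to STAT3 KO mice, so the controls lay inside their range. The log2 fold change was -0.01 ± 0.06 (SE), and its interval corresponded to a difference of between -8.96% and 8.52%. Il6st varied by 7.03% across animals (coefficient of variation), of which counting error alone would give 1.89%.

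Among the ligand-binding chains, Il6ra (chromosome 3, 89864059 to 89913196, minus strand) was at 4.24, 3.198, 3.76 and 3.08 CPM in the controls and from 2.78 to 4.52 in STAT3 KO mice, with a median of 3.44. Control 13 and STAT3 KO 6 were the highest of their groups, and the groups overlapped over nearly their whole ranges. Its log2 fold change was -0.05 ± 0.14 (interval -21.0% to 18.2%). With 80 to 127 counts per library, counting error alone gave a coefficient of variation of 10.3%, against 15.2% observed across animals. Cntfr (chromosome 4, 41657498 to 41697089, minus strand) was at 100.2, 100.1, 110.4 and 101 CPM in the controls. In STAT3 KO mice it ranged from 78.7 to 115 with a median of 103, and 7 of the 8 were at 102 or more, so that STAT3 KO 8 stood alone at the low end. The log2 fold change was -0.00 ± 0.07 (interval -10.5% to 11.5%), and it was 0.05 without STAT3 KO 8.

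The signalling chains included both members that differed at an unadjusted p. Lifr (chromosome 15, 7090614 to 7197489, plus strand) was at 82.6, 62.5, 77.6 and 71.2 CPM in controls 13, 4, 3 and 11, a mean of 73.5 ± 8.66 (SD, n = 4). In STAT3 KO mice it ranged from 58.7 to 72.3 with a median of 62.6 and a mean of 63.9 ± 4.78 (SD, n = 8). All 8 STAT3 KO mice were below the control median and 4 were below every control, while controls 4 and 11 lay within the STAT3 KO range. The log2 fold change was -0.20 ± 0.07 (interval -0.35 to -0.05), a percent change of -13.1%. Lifr had p = 0.0112 and adjusted p = 0.615 in edgeR's quasi-likelihood test and p = 0.0323 in a two-sided exact permutation of the genotype labels, for which the smallest possible p is 0.00202. Leaving out single animals kept the sign (log2 -0.27 without control 4 to -0.14 without control 13). The permutation p rose above 0.05 in 8 of these 12 cases, up to 0.127 without control 13.

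Lepr (chromosome 4, 101717404 to 101815352, plus strand) was at 5.84, 4.47, 8.31 and 6.55 CPM in controls 13, 4, 3 and 11, a mean of 6.29 ± 1.596 (SD, n = 4). In STAT3 KO mice it ranged from 3.53 to 5.98 with a median of 5.05 and a mean of 4.86 ± 0.823 (SD, n = 8). All 8 were below the control median, but only 2 were below control 4, the lowest control. Its log2 fold change of -0.37 ± 0.16 (interval -0.71 to -0.04), a percent change of -22.9%, was the largest of the 10. It had p = 0.0309 and adjusted p = 0.6246 with the quasi-likelihood test and p = 0.0848 in the exact permutation. The estimate moved from -0.51 without control 4 to -0.21 without control 3, the animal with the highest Lepr, and the unadjusted p stayed below 0.05 in 16 of 21 alternatives. Without control 4 the exact permutation p was 0.0182, the only case in which it passed. Leprot, a separate gene 58.0 kb upstream of Lepr whose protein limits leptin receptor at the cell surface, had a log2 fold change of -0.07 ± 0.05.

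Osmr (chromosome 15, 6813577 to 6874969, minus strand, 216 kb from Lifr) was at 8.43, 5.49, 6.70 and 4.31 CPM in controls 13, 4, 3 and 11. In STAT3 KO mice it ranged from 4.39 to 12.4 with a median of 5.35. STAT3 KO 6 held the value of 12.4, and the other 7 STAT3 KO mice were at 5.87 or less, inside the range of the controls. The log2 fold change was -0.04 ± 0.25, with the widest interval of the set (-33.0% to 41.4%), and it was -0.27 without STAT3 KO 6 and 0.14 without control 13. Osmr varied more than any other member, with a coefficient of variation of 37.4% across animals against 8.01% from counting.

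Jak1 and Jak2 were the most even members. Jak1 (chromosome 4, 101152367 to 101265282, minus strand) was at 183, 195, 199 and 208 CPM in the controls and from 177 to 207 in STAT3 KO mice, with a median of 192. The highest animal exceeded the lowest by only 1.17 times, and the log2 fold change was -0.04 ± 0.05 (interval -8.71% to 4.27%), with -0.06 without control 13 and -0.00 without control 11. Jak2, the kinase of the leptin receptor (chromosome 19, 29251828 to 29313080, plus strand), was at 56.1, 54.6, 52.0 and 57.2 CPM in the controls and from 48.8 to 54.4 in STAT3 KO mice, with a median of 52.8. All 8 STAT3 KO mice were below the control median, and 2 were below every control. Its log2 fold change was -0.07 ± 0.04 (interval -10.7% to 1.10%), with p = 0.0998 and adjusted p = 0.733 in the quasi-likelihood test, and the exact permutation gave p = 0.0848. Without control 3 the latter was 0.0303.

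Jak3, which pairs with the common gamma chain of lymphocyte cytokine receptors (chromosome 8, 71676296 to 71690575, plus strand), was at 10.7, 9.89, 7.90 and 7.59 CPM in the controls and from 6.68 to 11.1 in STAT3 KO mice, with a median of 8.57. The log2 fold change was -0.11 ± 0.13 (interval -23.8% to 13.1%), and it was -0.01 without control 13 and -0.18 without control 11. Its exons share 404 bases on the same strand with Insl3, which was read with only 2 to 11 counts per library. Tyk2, a kinase of interferon and interleukin-12 receptors (chromosome 9, 21104068 to 21131243, minus strand), was at 15.4, 12.9, 16.4 and 12.98 CPM in the controls and from 13.03 to 16.8 in STAT3 KO mice, with a median of 15.2. It was the only member with an estimate above 0, a log2 fold change of 0.04 ± 0.09 (interval -9.32% to 17.3%), and this estimate was -0.00 without control 4. Antisense transcripts are annotated over 8.07% of the exon bases of Tyk2 and 2.80% of those of Il6ra, and whether counting used strand is not given in the sources used here.

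**Figure D3:**
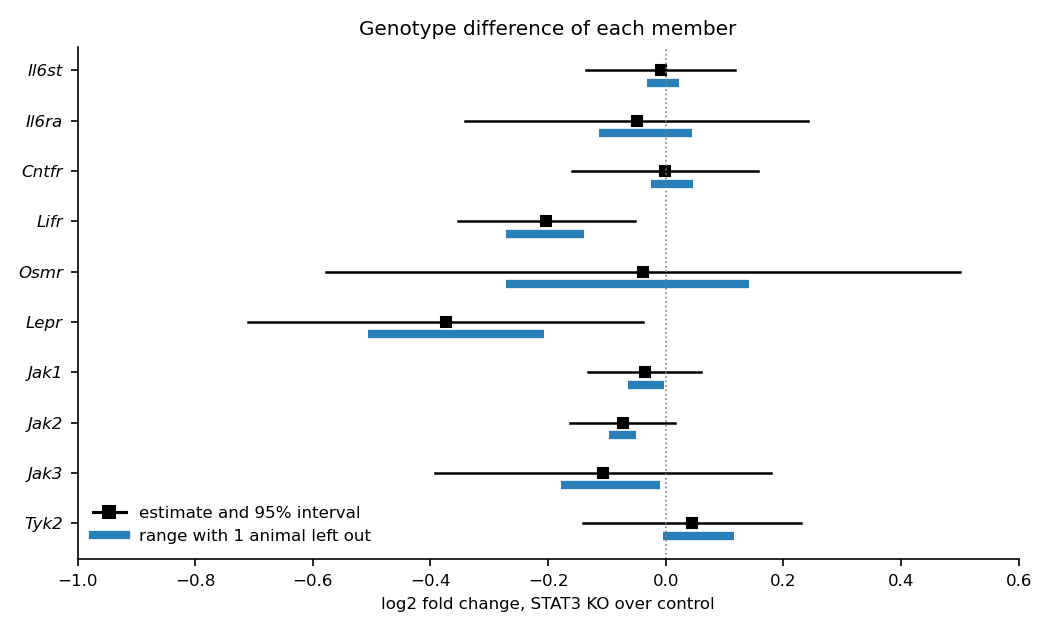
Log2 fold change of each member, STAT3 KO over control, with its 95% interval in black and the range of estimates with 1 animal left out in blue. Lifr and Lepr have intervals below 0 before adjustment, the other 8 intervals include 0, and Jak1 and Jak2 have the narrowest intervals.

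Balance among the members was compared within each animal, which does not depend on library scaling. Per length, Jak1 made up 64.8 ± 1.86% (SD, n = 4) of the 4 kinases in controls and 65.2 ± 1.18% (n = 8) in STAT3 KO mice. Jak2 made up 26.1 ± 1.08% and 25.6 ± 0.715%, Tyk2 5.03 ± 0.689% and 5.35 ± 0.621%, and Jak3 4.04 ± 0.777% and 3.87 ± 0.771%. Relative to Il6st, Cntfr was at 4.00 ± 0.116 in controls and 4.05 ± 0.576 in STAT3 KO mice, Lifr at 0.737 ± 0.0798 and 0.651 ± 0.0960, and Lepr at 0.0959 ± 0.0202 and 0.0760 ± 0.0171. The ratio of Il6ra to Il6st was 0.0447 in controls and 0.0439 in STAT3 KO mice, and that of Osmr 0.0558 and 0.0562. The latter mean includes the ratio of 0.131 in STAT3 KO 6, and the log2 difference was -0.07, with -0.26 without STAT3 KO 6 and 0.10 without control 13. None of these 9 shares and ratios passed a two-sided exact permutation test (smallest p = 0.125, for Lepr; adjusted p = 0.618). The log2 difference of the Lifr to Il6st ratio was -0.19, and it was -0.24 without STAT3 KO 6, where the exact permutation p was 0.0364, and -0.12 without control 13. That of the Lepr to Il6st ratio was -0.35, and it was -0.23 without control 3 and -0.48 without control 4.

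Sex was balanced within genotype, so the members were also compared between 6 females and 6 males, and the genotype difference was compared between the sexes. No member passed the adjusted threshold for sex (0 of 10 with edgeR's quasi-likelihood test, against 0.0841% of all genes, and 0 of 10 with DESeq2, which called 24 genes in all). Only Tyk2, 1 of 10 members, had an unadjusted p below 0.05, as did 7.2% of all genes. Tyk2 ranged from 13.4 to 16.8 CPM in females with a median of 15.9, and from 12.9 to 15.6 in males with a median of 13.3. The highest male, STAT3 KO 6, was above 3 of the females, and the log2 difference of females over males was 0.18 ± 0.07 (SE; adjusted p = 0.656). It remained between 0.15 and 0.22 with each animal left out, but without control 3 its unadjusted p no longer passed 0.05.

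The interaction of genotype and sex had an unadjusted p below 0.05 in Lifr and Osmr, 2 of 10 members against 5.49% of all genes, and 0 of 10 passed after adjustment with edgeR's quasi-likelihood test (0% of all genes) or with DESeq2, which called 2 genes in all. In Lifr, the 2 control females were at 82.6 and 77.6 CPM and the 4 STAT3 KO females at 60.5, 60.9, 61.3 and 64.1, so females of the genotypes did not overlap. With only 2 against 4 animals this was so for 2 of 10 members, Lifr and Osmr, and for 22% of all genes tested, so the members did not stand out in it. Control males were at 62.5 and 71.2 CPM, and STAT3 KO males at 58.7, 63.9, 69.9 and 72.3 enclosed them. The mean log2 difference was -0.38 in females and -0.02 in males, and the interaction term was -0.37 ± 0.11 (SE; adjusted p = 0.898). Without control 4, a male, it was -0.27, and its unadjusted p no longer passed 0.05. It also did not pass without both control 13 and STAT3 KO 6 (-0.29).

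In Osmr, control females were at 8.43 and 6.70 CPM and STAT3 KO females from 4.39 to 5.87. Control males were at 5.49 and 4.31, and STAT3 KO males at 4.84, 5.56, 5.64 and 12.4. The interaction term was -1.13 ± 0.44 (SE; adjusted p = 0.907), and it was -0.72 without STAT3 KO 6 and -0.54 without both STAT3 KO 6 and control 13. Its unadjusted p no longer passed 0.05 in 3 of 15 alternatives, without control 13, without control 11 and without both control 13 and STAT3 KO 6. With 2 control animals of each sex, the interaction rests on few animals.

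**Figure D4:**
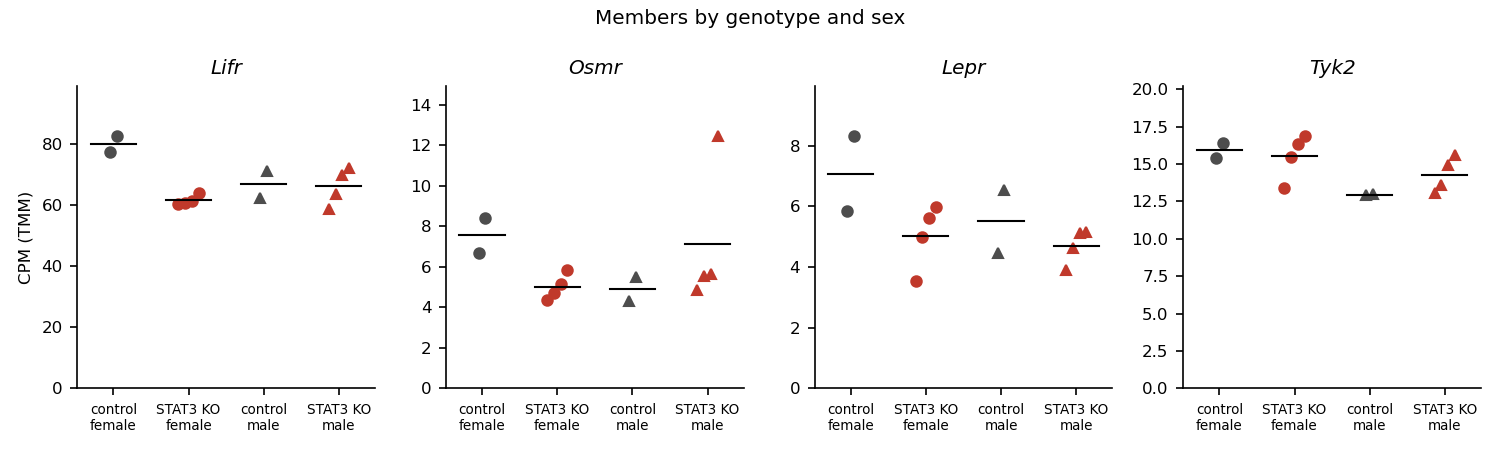
CPM of Lifr, Osmr, Lepr and Tyk2 in each animal by genotype and sex, with group means as lines. In Lifr and Osmr the 4 STAT3 KO females lie below the 2 control females while the males overlap, and in Tyk2 the 2 control males at 12.9 and 12.98 CPM lie lowest.

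Because the libraries hold whole tissue, each member was also set beside scores of 15 lists of cell type markers over the 12 animals. None of the 150 correlations passed the adjusted threshold for Pearson's r or for Spearman's rho (permutation test, 100000 resamples). The largest was Lepr with the dopaminergic list (r = 0.83, permutation p = 0.0015; rho = 0.79; adjusted p = 0.140). Lepr and this score were both highest in control 3 and both lowest in STAT3 KO 10, and r was 0.49 without these 2 animals and 0.66 in STAT3 KO mice alone. All 6 dopaminergic markers were read in every library, with summed levels of 357 to 720 CPM in controls and 320 to 478 in STAT3 KO mice, and all 6 had estimates below 0 for genotype, with a median log2 fold change of -0.31. Lepr also had r = -0.75 with the noradrenergic list (permutation p = 0.00451; rho = -0.66; adjusted p = 0.225), and r was -0.80 without the 2 animals farthest from the median score. All 3 noradrenergic markers tested had estimates above 0 for genotype (median log2 fold change 0.74), with summed levels of 2.91 to 20.8 CPM in controls and 2.80 to 57.9 in STAT3 KO mice. Lifr had r = 0.70 with the dopaminergic list (permutation p = 0.0103, adjusted p = 0.355). The part of these markers in the Lepr and Lifr values was not tested.

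Among the other members, Tyk2 had r = -0.77 with the astrocyte list (permutation p = 0.00187, adjusted p = 0.140), and r was -0.64 without the 2 animals farthest from the median score. Il6st had r = -0.67 with the endothelial list (permutation p = 0.0175), r = 0.66 with the cerebellar Purkinje list (permutation p = 0.0171) and r = -0.64 with the serotonergic list (permutation p = 0.0261), each with an adjusted p of 0.355. Without the 2 farthest animals these were -0.80, 0.72 and -0.67. Osmr had r = 0.77 with Alas2, the only erythroid marker with counts, but rho was 0.42 and r was 0.17 without the 2 farthest animals, 1 of them STAT3 KO 6. Osmr also had r = 0.63 and rho = 0.66 with the endothelial list (permutation p = 0.024, adjusted p = 0.355 for r), and r was 0.76 without the 2 farthest animals. Jak1 with the endothelial list (r = -0.65, rho = -0.71) and Cntfr with the astrocyte list (r = -0.65, rho = -0.37) had the same adjusted permutation p for r. In STAT3 KO 8 and 16, where choroid plexus markers were high, Lifr was at 58.7 and 60.5 CPM, its lowest values in the 12 animals, and Lepr at 4.63 and 4.99 CPM, within the range of the other STAT3 KO mice. Leaving both out gave log2 fold changes of -0.17 for Lifr and -0.37 for Lepr, and 1 member, Lifr, then had an unadjusted p below 0.05 (0.0394).

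Members were also set against each other across animals, after the results above had been seen. Of 45 pairs, 2 passed the adjusted threshold for Pearson's r and none for Spearman's rho. Il6st and Jak1 had r = 0.81 (permutation p, adjusted, 0.0398) and rho = 0.80 (adjusted 0.0733), with both genes lowest in STAT3 KO 6. Without the 2 animals farthest from the median of Il6st, r was 0.65. Il6ra and Osmr had r = 0.78 (permutation p, adjusted, 0.0398) and rho = 0.69 (adjusted 0.239), and r was 0.63 without the 2 farthest animals. Both genes were highest in STAT3 KO 6 and second highest in control 13. The animals share no library, but counts of every gene in a library share its depth and its mix of cells.

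The genes whose log2 CPM followed each member most closely over the 12 animals are given as a description only. For the receptors they were Aff4 (r = 0.92) and Socs4 (0.90) for Il6st, Cables1 (0.90) and Gjc1 (0.88) for Il6ra, and 4933430I17Rik (0.95) and Hnrnpl (0.95) for Cntfr. Trnp1 (r = 0.97) and Phospho1 (0.96) were closest to Lifr, Cp (0.96) and Acer2 (0.94) to Osmr, and Adgrl2 (0.94) and Foxa1 (0.92) to Lepr. For the kinases they were Tnr (r = 0.93) and Lsamp (0.91) for Jak1, Tmeff1 (0.92) and Hiatl1 (0.92) for Jak2, Isyna1 (0.89) and Mpnd (0.87) for Jak3, and Rreb1 (0.94) and Suv420h2 (0.93) for Tyk2. Among 15453 genes some will follow any member closely over 12 animals.

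The rest of the pathway was described with 7 lists of 86 genes in all, of which 73 were tested. None of the 73 passed the adjusted threshold (smallest adjusted p = 0.615), and 6, or 8.22%, had an unadjusted p below 0.05, against 7.66% of all genes. Estimates were above 0 in 44 and below 0 in 29, with a median log2 fold change of 0.03.

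Of the 12 ligand genes, 6 were tested, 5 with estimates above 0 and 1 below (median 0.18). Ctf1, encoding cardiotrophin-1, had the highest level per length and was at 1.37 ± 0.142 CPM (SD, n = 4) in controls and 1.57 ± 0.242 (n = 8) in STAT3 KO mice. Lif, encoding the ligand of Lifr, was at 0.741, 0.472, 0.410 and 0.462 CPM in controls 13, 4, 3 and 11 and from 0.639 to 1.14 in STAT3 KO mice, so that control 13 alone overlapped them. These values rest on 11 to 32 counts, and the log2 fold change was 0.67 ± 0.23 (SE; adjusted p = 0.615, edgeR quasi-likelihood test; exact permutation p = 0.0101). Il6 was read with at most 3 counts in any library and Lep with at most 2, both at or under the floor.

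Of 9 other genes listed with the gp130 and class I receptors, 7 were tested and 0 had an unadjusted p below 0.05 (median -0.05). The list includes Leprot, which is not itself a cytokine receptor and had the highest level per length (16.2 CPM per kilobase). Among the receptors in it, Il11ra1, the interleukin-11 receptor, was highest (4.83). Il11ra1 also had the smallest p (log2 fold change 0.15 ± 0.09, adjusted p = 0.731, edgeR). Of 17 common subunits and other receptors coupled to Janus kinases, 15 were tested, with 10 estimates above 0 and 5 below (median 0.03), and again 0 had an unadjusted p below 0.05. The highest level per length was that of Ifngr2, a chain of the interferon-gamma receptor. The smallest p was that of Csf2ra, a receptor chain for granulocyte-macrophage colony-stimulating factor (log2 fold change 0.18 ± 0.11, adjusted p = 0.763, edgeR). Il2rg, the common gamma chain that Jak3 serves, was at 1.56 ± 0.400 CPM (SD, n = 4) in controls and 1.39 ± 0.308 (n = 8) in STAT3 KO mice.

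Downstream, 6 of 7 STAT genes were tested, and their estimates lay between -0.01 (Stat3) and 0.08 (Stat5b, the most abundant per length and the one with the smallest p; adjusted p = 0.742, edgeR). Among 17 inhibitors, all tested, 11 had estimates above 0 and 6 below (median 0.03). Pias2 had the highest level per length. Socs5 had the smallest p, at 146.9, 141, 154 and 148 CPM in the controls and 131 to 145 in STAT3 KO mice (log2 fold change -0.10 ± 0.04, adjusted p = 0.615, edgeR). Socs3, the feedback inhibitor of gp130 and a STAT3 target, was at 1.52 ± 0.368 CPM (SD, n = 4) in controls and 1.56 ± 0.495 (n = 8) in STAT3 KO mice, with a log2 fold change of 0.03 ± 0.23.

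All 12 adaptors and proteases were tested, 3 with estimates above 0 and 9 below (median -0.01). Grb2, an adaptor that links receptors to Ras, had the highest level per length, and Gab1, a docking protein, the smallest p (log2 fold change -0.09 ± 0.04, adjusted p = 0.647, edgeR). Of 13 known STAT3 targets other than Osmr, 11 were tested, with 8 estimates above 0 and 3 below (median 0.08). Serpina3n, a marker of reactive astrocytes, had the highest level per length. Vim, encoding the intermediate filament vimentin, had the smallest p, at 38.5, 35.0, 37.5 and 37.0 CPM in the controls and 38.8 to 54.9 in STAT3 KO mice, so that the groups did not overlap. Its log2 fold change was 0.31 ± 0.08 (SE; adjusted p = 0.615, edgeR; exact permutation p = 0.00808). Markers of ependymal cells, which are rich in vimentin, had estimates above 0 in 5 of 5 genes (median log2 fold change 0.77), with summed levels of 22.7 to 67.2 CPM in controls and 33.7 to 88.1 in STAT3 KO mice, and cerebellar Purkinje markers in 4 of 4 (median 1.67). The 4 STAT3 KO mice with the highest Purkinje marker scores (16, 10, 7 and 14) were also the 4 with the highest Vim. The 4 highest ependymal scores were those of STAT3 KO 10, 14, 5 and 7. STAT3 KO 16, with the highest Vim, had an ependymal score of 0.30, below control 11 at 0.46. The part of these markers in the Vim value was not tested.

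**Figure D5:**
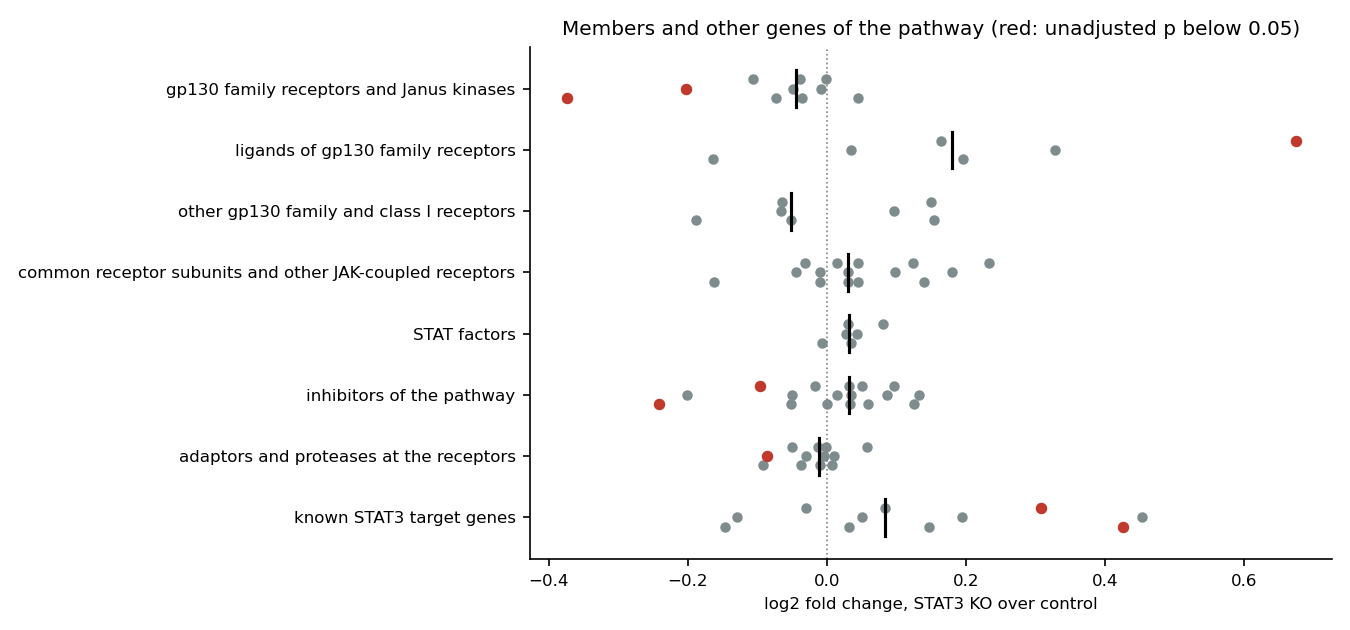
Log2 fold change, STAT3 KO over control, of the 10 members and of the tested genes of 7 pathway lists, each point a gene, with list medians as vertical lines and genes at an unadjusted p below 0.05 in red. Lifr and Lepr lie to the left in the member row, and Lif at 0.67 lies farthest to the right.

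Windows around the annotated start sites of the members, from 250 bases before to 50 bases after, were searched for the palindromic STAT motif TTCNNNGAA in the RefSeq promoter table. All 10 members had windows, 17 in number, and 0 held the motif, against 8.30% of all 32851 windows. This says only that these letters are not in these windows.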

How the data were processed

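The authors sequenced RNA of 12 DR samples as 75-base single reads (RNA integrity numbers above 7) and aligned them to mm10 with STAR, listed as version 2.5.0b in the submitters' processing notes together with DESeq2 1.6.3 and bcl2fastq. The deposited files hold raw read counts per gene symbol, not normalised. The counter, annotation and use of strand are not given in the sources used here. Each file ends with 2 lines of reads on no single gene (13.9% to 15.8%), which were left out. The depth was 24379588 to 29645210 counts per library, with a floor of 3 counts that covers counting error only. No 2 libraries were copies: over the 66 pairs, the mean chi-square per gene was 5.24 or more where counting noise gives 1.

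Groups and sexes came from the sample labels. The main test was edgeR 4.0.16 (R 4.3.3), two-sided quasi-likelihood, with TMM and Benjamini-Hochberg adjustment over 15453 genes at a threshold of 0.05. Genes were kept with filterByExpr by genotype. It asks for about 10 counts in at least as many libraries as the smaller group has, and 15 in total. The sex test had genotype as a covariate. SEs were derived from the quasi-likelihood F value of each coefficient. TMM factors also scaled CPM, with a prior count of 2 on the log2 scale. A marker score was the mean of log2 CPM over a list, centred on the 12 animals. Permutation and sign-flip tests ran in Python 3.11.15 with numpy 2.4.6 and pandas 2.3.3, and figures in matplotlib 3.10.9. The edgeR tests were checked on simulated counts with known changes, and the permutation test on random values with no difference or a large one. Lengths and positions (from 1) are those of GENCODE vM21 for GRCm38, in which 23334 of 24421 symbols matched a single gene. In promoter windows the palindrome covers both strands, and overlap with other motifs was not examined.

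Alternatives were DESeq2 1.42.0, the edgeR likelihood ratio test, limma 3.58.1 voom with quality weights, RLE, other filters, sex as a covariate, a prior count of 0.5, mean CPM, other lengths, each animal left out, and STAT3 KO 8 and 16 left out. Leaving out control 13 with STAT3 KO 6 was chosen after seeing the data. Members, gene lists and tests were chosen with earlier results of these data known. Named are the members, Stat3, Slc6a4, Tph2, the gene of each pathway list with the highest level per length or the smallest p, any pathway gene called for genotype, and the 2 genes closest to each member. Il6, Lep, Il2rg, Socs3, Leprot, Insl3, Lcn2 and Alas2 were named after their values were seen. Slc6a4 and Tph2 had log2 fold changes of -0.08 ± 0.19 and 0.05 ± 0.11 (SE).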

Additional observations from a re-analysis of the deposited data

Results flagged for a closer look

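Of 20 groups of values, the 10 members in each genotype, 3 held an animal whose gap to its nearest neighbour was too large for the range of the group, where chance gives about 1. Osmr in STAT3 KO 6 was at 12.4 CPM, and its gap on the log2 scale was 0.722 of the range of the 8 STAT3 KO mice. In the same animal Il6ra (4.52 CPM) and Jak3 (11.1 CPM) were the highest, and Il6st (86.8 CPM), Jak1 (177 CPM) and Jak2 (48.8 CPM) the lowest, of all 12 animals. Lcn2, an acute-phase gene that rises in inflammation, was at 14.1 CPM in STAT3 KO 6 and 6.21 CPM in control 13, and at 0.240 CPM or less in the other 10 animals. Control 13 also had the second highest Osmr (8.43 CPM). Alas2, the only erythroid marker with counts, was at 19.0 CPM in STAT3 KO 6 and at 4.95 CPM or less elsewhere. Their part in the Osmr value was not tested.

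Cntfr in STAT3 KO 8 was at 78.7 CPM, the lowest of the 12 animals, and its gap was 0.694 of the range of the STAT3 KO mice. STAT3 KO 8 and 16 both had high choroid plexus markers, and Cntfr in STAT3 KO 16 was at 103 CPM. The part of these markers in the Cntfr value was not tested. Cntfr in control 3 was at 110.4 CPM, and its gap was 0.943 of the range of the 4 controls, the other 3 of which lay within 100.1 to 101 CPM.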

How the results depend on the processing

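No member passed the adjusted threshold for genotype (21 alternatives), sex (17) or their interaction (15). Lifr and Lepr kept their sign for genotype in all 21, with an unadjusted p below 0.05 in 20 and 16. Depth limits mainly Il6ra, where counting error alone gives a coefficient of variation of 10.3% against 15.2% across animals. In Osmr, Lepr and Jak3 the variation across animals (37.4%, 23.9% and 16.8%) exceeded counting error (8.01%, 8.42% and 6.57%) by more.

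Over all genes, 0 genotype calls became 6 with DESeq2, 3 with the likelihood ratio test and 0 to 1 with an animal left out (1 without control 4). The 13 sex calls became 24 with DESeq2 and 4 with at least 10 counts in every library. The 0 interaction calls became 2 with DESeq2, 1 without control 13 and STAT3 KO 6, and 0 to 37 with an animal left out (37 without control 11).

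Some estimates changed sign, not all of them near 0. For genotype (log2), Il6st was 0.0054 with voom and 0.015 without control 13 and STAT3 KO 6, and Cntfr was 0.041 with voom, 4.3e-05 with RLE, 0.0013 with every gene, 0.0021 with the strict filter and 0.058 without STAT3 KO 8 and 16. The difference of its mean CPM was 0.094 CPM. Without control 13 and STAT3 KO 6, Osmr was 0.069 for sex, and the interactions were -0.078 for Il6st, -0.036 for Cntfr and 0.15 for Jak3. By the longest transcript, Jak2 over Il6st was -0.15 and Lepr over Osmr -0.18 (log2 ratio), and without division by length Cntfr over Jak1 was -0.91, Jak2 over Il6st -0.94 and Lepr over Osmr -0.17.

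With each animal left out, genotype estimates ran from -0.031 to 0.023 for Il6st, -0.11 to 0.045 for Il6ra, -0.27 to 0.14 for Osmr, -0.026 to 0.047 for Cntfr and -0.0043 to 0.12 for Tyk2. The corresponding mean differences in the permutation test ran from -0.033 to 0.023, -0.12 to 0.033, -0.24 to 0.083, -0.030 to 0.049 and -0.0022 to 0.11. Sex differences ran from -0.0038 to 0.16 for Il6ra, -0.032 to 0.062 for Lifr, -0.27 to 0.18 for Osmr, -0.031 to 0.022 for Jak1 and -0.13 to 0.039 for Jak3. Interactions ran from -0.034 to 0.079 for Il6st, -0.090 to 0.081 for Cntfr, -0.58 to 0.0028 for Lepr, -0.022 to 0.095 for Jak2 and -0.43 to 0.020 for Jak3. Log2 genotype differences ran from -0.011 to 0.019 for the share of Jak1, -0.16 to 0.035 for that of Jak3, and -0.13 to 0.053, -0.26 to 0.10 and -0.031 to 0.064 for the ratios of Il6ra, Osmr and Cntfr to Il6st. The cause was not tested. Library scaling cancels in the order and the shares.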
